A study of Mus musculus with 22 samples.

Results

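The genes described here are the histone genes of mouse cardiac cells: 78 of the 23359 genes in the deposited expression table. They were chosen by symbol alone, as the rows whose names start with Hist1h, Hist2h, Hist3h, Hist4h or H2af, together with H1f0, H3f3a and H3f3b, so no measured value entered the choice. By symbol they fall into replication-dependent genes for H2A (18), H2B (18), H3 (12), H4 (13) and linker H1 (6), variant genes for H2A (8) and H3 (2), and the linker variant H1f0 (1). A gene was tested when it reached 1 FPKM, a level normalised to transcript length and library size, in at least 2 libraries, and 71 of the 78 did. The 7 that did not were Hist1h2aa, Hist2h2bb, Hist2h4, Hist4h4, H2afb1, H2afy2 and H2afy3, all under 1 FPKM in every library. Of the 71, 10 reached 1 FPKM in no sedentary or sham fibroblast library and so passed this filter through other groups, and Hist1h1t reached it in fibroblasts after 4 days of swimming alone. Of the 78 genes, 54 lie on chromosome 13 and 11 on chromosome 3.

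Core histones form the protein spool of the nucleosome, around which DNA is wound, and linker H1 histones bind where DNA enters and leaves it. Replication-dependent histone genes are known for making their protein in S phase, when new DNA is packed, and for mRNAs that end in a stem-loop, bound by the protein SLBP, in place of a poly-A tail. Variant genes such as H3f3a and H3f3b (histone H3.3), H2afz (H2A.Z) and H1f0 are transcribed outside S phase into ordinary polyadenylated mRNA, and they supply chromatin in cells that have stopped dividing. A poly-A tail on a replication-dependent histone mRNA has been described in differentiated cells. The libraries here were made from poly-A RNA, so a level of a replication-dependent gene covers only transcripts recovered with that RNA, and what share of its total mRNA this was is not known.

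Hearts under strain, injury and exercise were compared in male wild-type C57BL/6 mice of 10 to 14 weeks. Cardiac fibroblasts, the connective tissue cells of the heart, came from sedentary mice (3 libraries), mice 3 days after a sham operation (2 libraries), mice 3 days (3 libraries) and 10 days (3 libraries) after TAC, mice 5 days after MI (2 libraries), and mice after 4 days (3 libraries) and 10 days (3 libraries) of swimming. TAC (transverse aortic constriction) narrows the aorta and overloads the heart with pressure, and MI is myocardial infarction. Cardiomyocytes, the contracting cells, came from sedentary mice (3 libraries). The labels do not say whether libraries of a group came from separate animals, so a p-value here covers the spread among libraries and may be technical. There was no sham group for 10 days of TAC or for MI.

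The stem-loop that ends replication-dependent histone mRNAs was looked for first, because it bears on how a poly-A library samples these genes. In GENCODE M21 transcripts, the stem-loop consensus (GGNNC, then TTTTN, then AGNNCC, with N for any base) was found on the transcript strand in 44 of the 67 replication-dependent genes (65.7%), in 1 of the 11 variant genes, H2afx, and in 27 of 21801 other protein-coding genes (0.124%). By class it was in 11 of 18 H2A, 10 of 18 H2B, 8 of 12 H3, 11 of 13 H4 and 4 of 6 linker genes. Several genes without a match had short annotated transcripts, among them Hist1h4k (312 bases), Hist1h2bl (381), Hist1h2ai (393) and Hist1h3h (411). A missing match therefore does not show that a gene lacks the stem-loop. A single form, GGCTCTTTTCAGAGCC, accounted for 26 of the 44. The sequences that follow are from genes the results turn on, 5′ to 3′, with the stem-loop in capitals. Of these, Hist1h1c, Hist2h2aa1 and Hist1h3d carry that form. Hist1h2bk has the same stem with another loop, and Hist1h4d, Hist1h4j and H2afx carry other stems.
Hist1h1c: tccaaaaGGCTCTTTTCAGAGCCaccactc
Hist1h2bk: caccaaaGGCTCTTTTAAGAGCCactaaac
Hist2h2aa1: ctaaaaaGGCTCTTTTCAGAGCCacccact
Hist1h3d: ccccaaaGGCTCTTTTCAGAGCCacccccg
Hist1h4d: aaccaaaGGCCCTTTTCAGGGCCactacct
Hist1h4j: ccctaaaGGTCCTTTTCAGGACCaccacat
H2afx: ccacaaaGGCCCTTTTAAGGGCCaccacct
The annotated transcript went on for more than 100 bases beyond the stem-loop in 22 of the 44 genes, and 13 of the 44 had the polyadenylation signal AATAAA in that stretch. Hist1h1c, the gene of linker histone H1.2 (mm10 chr13:23738807-23740367, plus strand), was among those 13, with 840 annotated bases beyond its stem-loop. A match describes the annotated transcripts and does not show where the sequenced RNA ended.

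Promoters were examined because members of a class moved together. Windows of 300 bases (250 before the start of transcription and 50 after it) from RefSeq on GRCm38.p6 were found for 66 of the 78 genes, and motifs were searched on both strands. CCAAT was in every promoter found for replication-dependent H2A (16), H2B (15), H3 (10) and linker (6) genes, in 3 of 11 H4 promoters (27.3%) and in 37.4% of all 32851 promoters. The octamer ATTTGCAT was in 7 of 16 H2A promoters (43.8%) and 7 of 15 H2B promoters (46.7%), in none of the H3, H4 and linker promoters, and in 1.74% of all promoters. TATAAA was in 40% of H3, 53.3% of H2B, 62.5% of H2A, 63.6% of H4 and 66.7% of linker promoters, in none of the 6 variant H2A promoters found, and in 13.6% of all promoters. Variant genes held some of these motifs too. CCAAT was in 4 of 6 variant H2A and 2 of 2 variant H3 promoters. The octamer and TATAAA were each in 1 of 2 variant H3 promoters. The octamer was in no variant H2A promoter, and none of these motifs was in that of H1f0. The 150 bases before the start are printed here for 1 gene of 4 classes that behaved differently, with matches to these motifs in capitals.
Hist1h1c (chr13:23738657-23738806, plus strand): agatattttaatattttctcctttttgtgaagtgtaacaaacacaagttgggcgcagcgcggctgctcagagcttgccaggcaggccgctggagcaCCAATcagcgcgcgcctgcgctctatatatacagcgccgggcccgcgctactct
Hist1h2bk (chr13:22035671-22035820, plus strand): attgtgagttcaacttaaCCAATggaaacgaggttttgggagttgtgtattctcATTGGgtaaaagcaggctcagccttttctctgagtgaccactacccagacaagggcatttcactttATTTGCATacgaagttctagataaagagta
Hist1h3d (chr13:23575613-23575762, plus strand): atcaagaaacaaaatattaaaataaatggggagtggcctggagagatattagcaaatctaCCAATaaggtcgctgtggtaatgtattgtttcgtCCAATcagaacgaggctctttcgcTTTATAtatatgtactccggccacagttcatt
Hist1h4k (chr13:21750554-21750703, minus strand): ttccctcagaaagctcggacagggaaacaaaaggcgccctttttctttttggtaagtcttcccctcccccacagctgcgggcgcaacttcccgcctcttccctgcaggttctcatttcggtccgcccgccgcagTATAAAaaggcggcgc
Hist1h4k had no CCAAT in its window. The start of Hist1h2bk lay 178 bases from that of Hist1h2ah on the other strand, and it was among 8 such H2A and H2B neighbours that face away from each other, 164 to 281 bases apart. Every match is a description of letters, and binding was not measured.

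Replication-dependent genes of a class share much of their sequence, so they are not independent measurements. Over 50% of the 50-base windows of a gene were found letter for letter in other histone genes for 12 of 18 H2A, 7 of 12 H3, 5 of 18 H2B and 4 of 13 H4 genes. These counts take in matches to genes of any histone class. How the authors' counting divided such fragments is not given in the sources used here. No 50-base window of a replication-dependent H3 gene occurred in H3f3a or H3f3b, even with 2 mismatches. This describes annotated transcripts, and whether the authors' counting kept these genes apart is not known. Replication-dependent H2A genes did share windows with variant H2A genes. For the pair that shared most, it was 23.8% of the windows letter for letter, and up to 42.7% with 2 mismatches. Hist1h2ao and Hist1h2ap, Hist2h2aa1 and Hist2h2aa2, Hist1h4m and Hist1h4n, and Hist1h1e and Hist1h2be are listed at a shared locus, and their single values are uncertain. Most replication-dependent genes are short: 40 of 67 span under 500 bases as listed.

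The libraries differed in ways that touch every result. The sum of all FPKM was 85128 to 119382 in sedentary, 113944 to 118368 in sham, 100171 to 101254 in MI, 138408 to 155181 in 10 day TAC, 156697 to 169459 in 3 day TAC, 147541 to 158695 in 10 day swim, 197221 to 205139 in 4 day swim and 179556 to 198271 in cardiomyocyte libraries. The replication-dependent H3 sum made up 1.09% to 1.40% of it in sedentary and 1.18% to 1.37% in 10 day TAC libraries. It made up 1.34% to 1.76% in 10 day swim and 1.90% to 2.64% in 4 day swim libraries. For H2A these shares were 0.0386% to 0.0478%, 0.167% to 0.191%, 0.0663% to 0.0975% and 0.0930% to 0.193%, in the same order. The H3 shares of both 10 day groups overlapped those of sedentary libraries, and the H2A shares did not. The part of the FPKM total in the results was not tested. The sum of 8 cardiac fibroblast markers was 675 to 2169 FPKM in fibroblast libraries and 57.9 to 115 in cardiomyocyte libraries. The sum of 8 cardiomyocyte markers was 42.0 to 492 and 10205 to 13039 FPKM in the same order, so each labelled cell type had its own markers. The sum of 8 macrophage and monocyte markers was 434 to 1445 FPKM in fibroblast and 61.8 to 188 FPKM in cardiomyocyte libraries, and the sum of 6 endothelial markers 8.59 to 88.6 FPKM over all libraries. Depth is unknown, since the table gives no counts. In bulk samples, fewer cells of a type and less RNA per cell cannot be told apart.

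In sedentary fibroblasts, per unit length, the replication-dependent H3 genes stood far above the other classes. Their summed level was 1359, 929 and 1596 FPKM in the 3 libraries. The H2A sum was 46.3, 32.8 and 55.6 FPKM, the H2B sum 35.0, 35.8 and 36.3, and the H4 sum 6.77, 6.85 and 16.9. The H1 linker sum was 4.30, 6.89 and 4.90 FPKM. The lowest H3 sum was above the highest sum of any other class. Hist1h1c alone made up 69.1% to 79.3% of the replication-dependent linker sum in each of the 22 libraries. The variants H3f3b and H3f3a, which encode the same H3.3 protein, stood at 116, 78.9 and 152 FPKM and at 55.7, 54.0 and 84.3 FPKM.

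**Figure D1:**
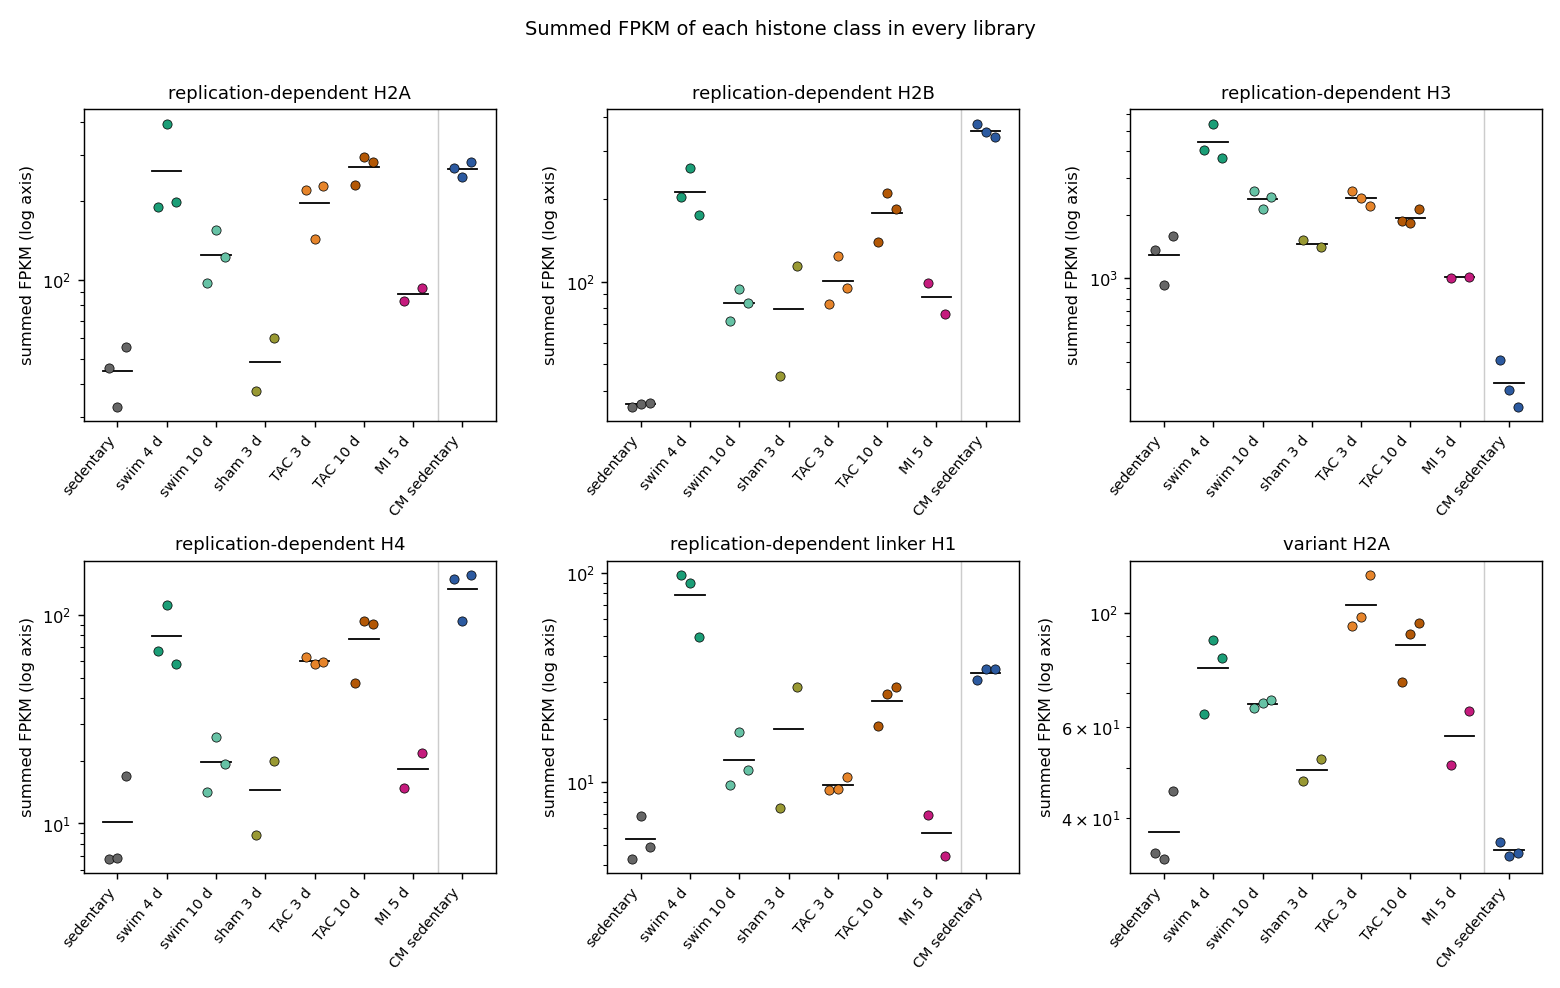
Summed FPKM of 6 histone classes (log axes) in the 8 groups, where a point is a library and a bar the mean of its group. Replication-dependent H2A, H2B, H4 and linker sums were high in 4 day swim and 10 day TAC fibroblasts and in cardiomyocytes, while the H3 sum was highest in 4 day swim fibroblasts and lowest in cardiomyocytes.

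Of all comparisons between fibroblast groups, 4 days of swimming against rest had the most called histone genes. Against sedentary mice, 69 of the 71 tested histone genes rose after 4 days of swimming and none fell, by limma on log2(FPKM + 1) with a Benjamini-Hochberg adjusted p under 0.05. Among all 9425 genes tested, 38.2% rose and 26.3% fell. The median log2 difference of the histone genes was 1.81, against 0.13 over all genes, and all 69 genes were higher in each of the 3 swim libraries than in any sedentary library, as were 38.4% of all genes. Every tested H2B (17), H3 (12), H4 (11) and linker (6) gene rose, as did 16 of 17 H2A genes. The linker gene Hist1h1t, which passed the filter only through this group, was at 0.606 to 1.03 FPKM against 0.031 to 0.099 FPKM at rest. Hist2h2aa2, which shares its locus with Hist2h2aa1, and H2afy, the gene of macroH2A1, did not pass (log2 differences -0.09 and 0.10, adjusted p 0.916 and 0.593).

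Hist1h1c had the largest difference. It was at 3.41, 5.03 and 3.43 FPKM in the sedentary libraries and at 73.9, 70.1 and 38.2 FPKM after 4 days of swimming. The lowest swim library was thus well above the highest sedentary library. The log2 difference was 3.60 ± 0.36 (SE, adjusted p 1.05e-06). Hist1h1b, the gene of linker histone H1.5, was at 0.352, 0.847 and 0.668 FPKM at rest and at 12.9, 10.4 and 5.55 FPKM after 4 days, a log2 difference of 2.65 ± 0.28 (adjusted p 1.40e-06). Of these linker genes, Hist1h1c carries the stem-loop printed above, and no match was found in the annotated transcript of Hist1h1b.

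By class, the medians on the log2(FPKM + 1) scale were 2.04 for H4, 2.01 for H2B, 1.94 for H2A, 1.77 for H3 and 1.54 for linker genes. The added 1 pulls differences of low genes such as those of H4 toward 0, so these medians do not compare the classes. The H4 sum went from 10.2 ± 5.80 to 79.0 ± 28.6 FPKM (mean ± SD, n = 3), the H2B sum from 35.7 ± 0.65 to 213 ± 43.7, the linker sum from 5.36 ± 1.36 to 78.7 ± 25.8, and the H3 sum from 1294 ± 338 to 4417 ± 890 FPKM. Each of these class sums was higher in every swim library than in any sedentary library. Hist1h2bk, an H2B gene of the printed promoter, was at 4.68, 4.63 and 4.83 FPKM at rest and at 29.6, 37.7 and 25.5 FPKM after 4 days, with a log2 difference of 2.46 ± 0.26 (adjusted p 1.22e-06). Hist1h2bj and Hist2h2aa1 were at 2.48 ± 0.27 and 2.49 ± 0.27. Hist1h3d, an H3 gene at a far higher level, went from 206, 144 and 251 FPKM to 655, 930 and 605 FPKM, a log2 difference of 1.87 ± 0.20 (adjusted p 1.40e-06).

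The variants had lower log2 differences. The median log2 difference was 0.97 over 5 variant H2A genes, of which 4 rose, and 1.16 over H3f3a and H3f3b, which both rose. H3f3b went from 116, 78.9 and 152 FPKM to 249, 266 and 214 FPKM, a log2 difference of 1.11 ± 0.21 (adjusted p 2.31e-04). As a share of all FPKM of a library, however, these variant classes overlapped between the groups. H3f3a and H3f3b together made up 0.156% to 0.198% at rest and 0.183% to 0.211% after 4 days. The 8 variant H2A genes made up 0.0354% to 0.0391% and 0.0311% to 0.0432%. H1f0, the linker variant that accumulates in cells leaving the cell cycle, was at 2.78, 3.67 and 3.04 FPKM at rest and at 14.2, 18.95 and 8.23 FPKM after 4 days, a log2 difference of 1.76 ± 0.25 (adjusted p 1.49e-05). That is near the median of the 63 replication-dependent genes (1.85). Whether replication-dependent and variant genes differ was not tested.

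**Figure D2:**
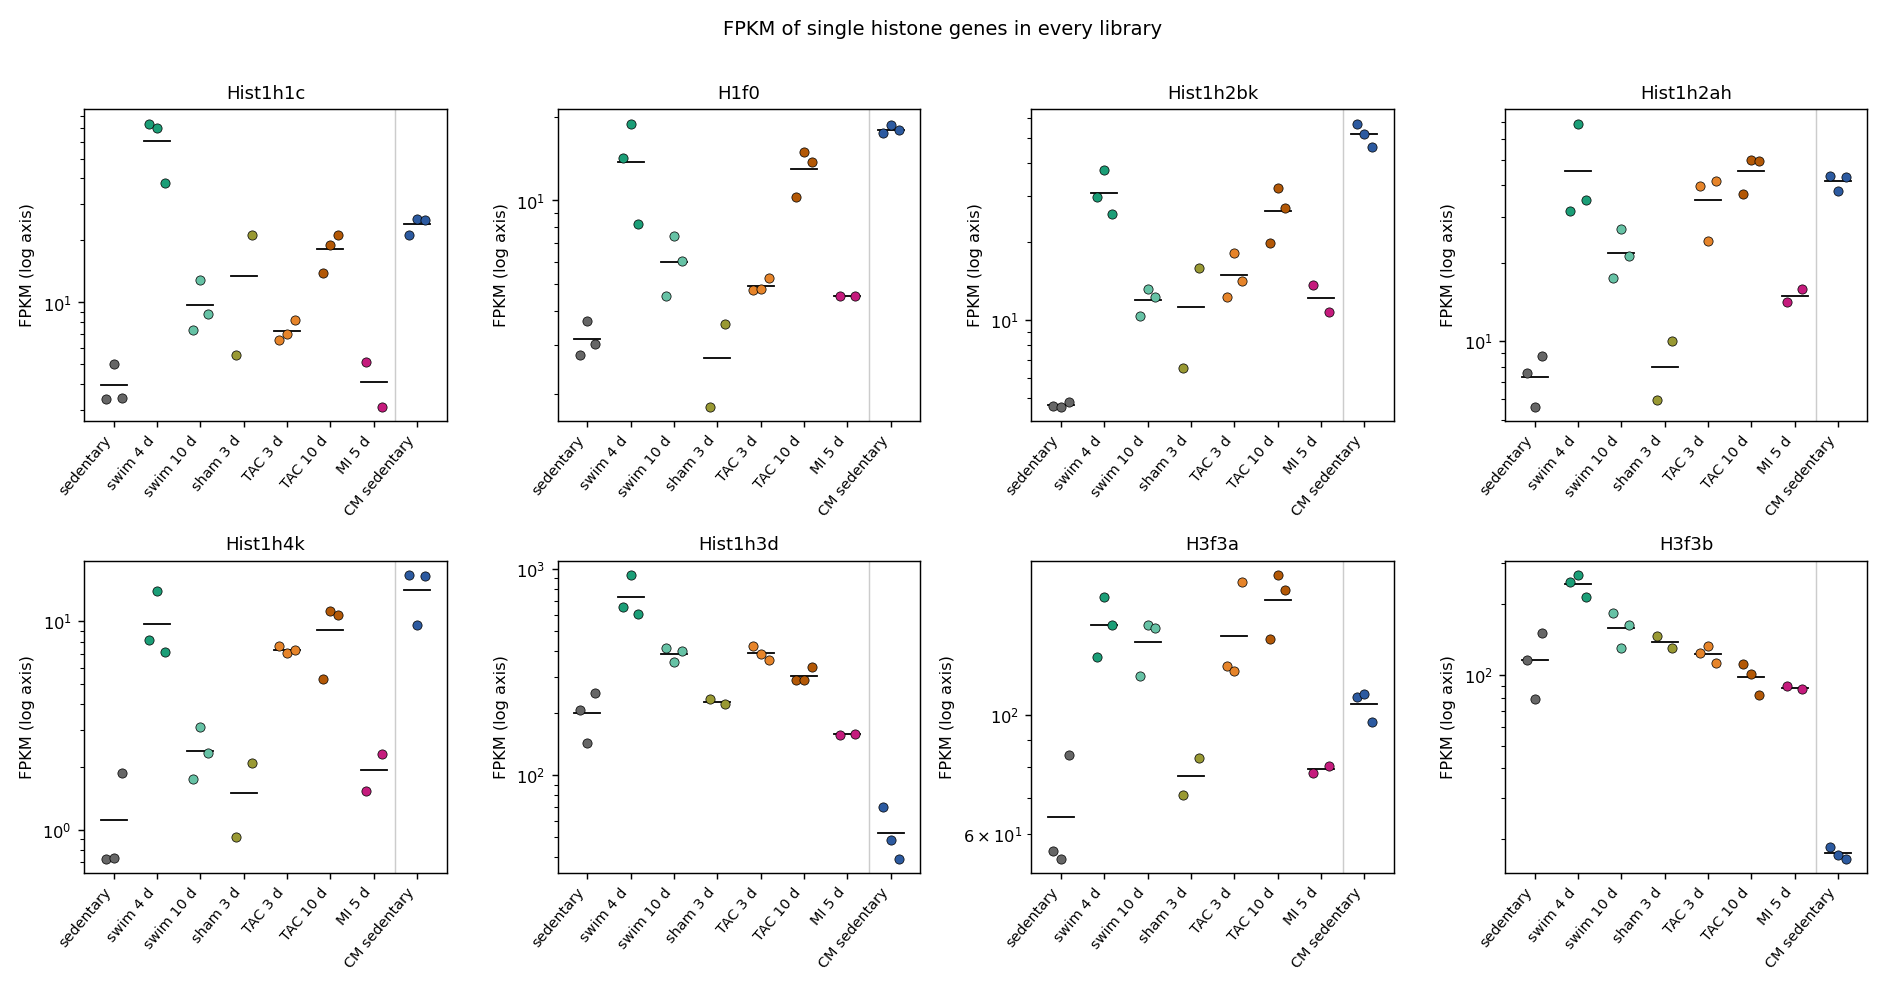
FPKM (log axes) of 8 histone genes in the 8 groups, where a point is a library and a bar the mean of its group. Hist1h1c stood at 38.2 to 73.9 FPKM in 4 day swim libraries and at no more than 25.5 FPKM in any other library, and H3f3b was at 16.5 to 18.5 FPKM in cardiomyocytes and at 78.9 or more in every fibroblast library.

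After 10 days of swimming the rise over sedentary mice was smaller. Of 71 genes, 42 rose and none fell, where 30% of all genes rose and 13.6% fell, and the median log2 difference was 0.78 against 0.14 over all genes. All 42 were higher in each swim library than in any sedentary library, as were 54 of the 71 genes in all and 38% of all genes tested. By class, 14 of 17 H2A, 11 of 12 H3 and 10 of 17 H2B genes rose, but none of the 11 H4 genes (median log2 difference 0.63) and, of 6 linker genes, only Hist1h1c (1.09 ± 0.36, adjusted p 0.0206). Hist1h1c was at 7.33, 12.9 and 8.83 FPKM, and its call was lost without sedentary library 1 or 3 or 10 day swim library 2. The largest rises were of Hist1h2ah (1.47 ± 0.29, adjusted p 7.54e-04), H2afv (1.38 ± 0.26), Hist1h2ag (1.35 ± 0.27), Hist1h2ao (1.34 ± 0.27) and Hist1h2ai (1.34 ± 0.30). H2afv encodes a second form of H2A.Z and was at 2.18, 2.42 and 2.51 FPKM at rest and at 6.29, 10.0 and 7.38 FPKM after 10 days.

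Between the 2 swim groups, 24 histone genes were lower at 10 than at 4 days and none was higher. Over all 9425 genes only 29 were lower (0.308%) and 1 was higher (0.0106%), so histone genes made up 24 of the 29. The 24 were all 6 linker genes, 9 of 17 H2B, 8 of 11 H4 and 1 of 12 H3 genes, with no H2A gene and no variant among them. Hist1h1t, which entered the test through its 4 day levels, was at 0.145 to 0.224 FPKM at 10 days. At an unadjusted p under 0.05, 65 of 71 histone genes and 2251 of 9425 genes passed. Hist1h1c fell by 2.51 ± 0.36 (adjusted p 0.00375) and Hist1h1b by 2.02 ± 0.28 (adjusted p 0.00375) on the log2 scale, and both kept an adjusted p of at most 0.0463 when any single library was left out. The H4 genes Hist1h4d (-1.67 ± 0.29), Hist1h4k (-1.63 ± 0.29) and Hist1h4j (-1.61 ± 0.28) came next. Their calls were lost without 10 day swim library 1 or 3 or 4 day swim library 1 or 2. The count itself rested on single libraries: without 4 day swim library 1, 2 or 3 it was 7, 5 and 41 genes, and without 10 day swim library 1 or 3 it was 5 and 6. A fit of these 2 groups alone called 0 histone genes.

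Early pressure overload was compared with sham operation, the only operated control. At 3 days after TAC, 41 of 71 histone genes were higher than after sham operation and 1 was lower, where 31.3% of all genes rose and 25.8% fell. The median log2 difference was 0.74, against 0.05 over all genes. All 11 H4 genes (median 1.65), 15 of 17 H2A genes (1.42) and 9 of 12 H3 genes (0.72) rose, with 4 of 5 variant H2A genes, H3f3a and H1f0. Hist1h2ap, Hist1h2an, Hist1h2ah, Hist1h2ai and Hist1h2ag led, from 2.06 ± 0.40 to 1.85 ± 0.31. Hist1h2ah was at 5.92 and 10.0 FPKM after sham operation and at 39.5, 24.3 and 41.4 FPKM after TAC. Its 3 TAC libraries were all above both sham libraries. With the length and GC trend described further on removed, 22 of 71 histone genes were higher and 5 lower, where 28% of all genes were higher and 26.4% lower. The share of higher histone genes was thus near that of all genes. By class, 7 of 11 H4 (median 0.73), 8 of 17 H2A (0.56) and 4 of 5 variant H2A genes were higher, but 1 of 12 H3 genes (-0.08). The H2B genes were then at a median of -0.36 with 1 higher and 3 lower, and 2 of 6 linker genes were lower (-0.55). The sum of 4 neutrophil markers was 127, 6.01 and 76.8 FPKM in the 3 TAC libraries, where the H2A sum was 220, 144 and 229 FPKM. In the sham libraries the neutrophil sum was 15.4 and 57.8 FPKM and the H2A sum 37.6 and 60.2 FPKM. Of these markers 2 were tested and neither passed, and their part in the result was not tested.

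None of the 17 H2B genes passed (median 0.36), and of 6 linker genes 1 passed, in the other direction: Hist1h1d fell by 0.55 ± 0.21 (adjusted p 0.0337). Sham library 2 stood apart in these classes. Its H2B sum was 114 FPKM against 45.5 in sham library 1, and its Hist1h1c level was 21.3 against 5.58 FPKM, above the 6.60, 7.06 and 8.18 FPKM of the 3 TAC libraries. The same library had the highest macrophage and monocyte marker sum (1445 FPKM, against 672 in sham library 1), whose part in the result was not tested. Without it, 11 of 17 H2B genes were higher after TAC (median 0.89) and no linker gene passed. Without sham library 1, 2 H2B and 3 linker genes were lower and none higher. The fall of Hist1h1d was lost without sham library 2 or any TAC library, and with the length and GC trend removed its value was 0.59 (adjusted p 0.0763).

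Established pressure overload was compared with sedentary mice, as there was no 10 day sham group. Surgery and pressure overload therefore cannot be told apart in it. At 10 days after TAC, 65 of 71 were higher than in sedentary mice and none was lower, where 38.8% of all genes rose and 27% fell. The median log2 difference was 1.65, against 0.12 over all genes, and in 64 of the 65 every TAC library was above every sedentary library, as in 38.8% of all genes. All 17 H2B (median 1.81), 11 H4 (2.10) and 6 linker genes (0.68) rose, with 16 of 17 H2A (1.97) and 9 of 12 H3 genes (0.63). The largest rises were of H2A genes: Hist1h2ao (2.74 ± 0.27, adjusted p 1.25e-06), Hist2h2aa1 (2.62 ± 0.27), Hist1h2ah (2.49 ± 0.29), Hist2h2ac (2.39 ± 0.28) and Hist1h2ag (2.36 ± 0.27). Hist2h2aa1 was at 4.75, 3.06 and 6.42 FPKM at rest and at 30.8, 40.9 and 29.1 FPKM after TAC. Hist1h1c reached 13.9, 18.97 and 21.4 FPKM (1.94 ± 0.36, adjusted p 1.76e-04). The variants H3f3a and H3f3b parted here: H3f3a rose by 1.35 ± 0.20 (adjusted p 2.91e-05), from 55.7, 54.0 and 84.3 to 139, 182 and 171 FPKM, while H3f3b stood at 111, 100.5 and 82.4 FPKM, within the sedentary range (-0.20 ± 0.21, adjusted p 0.427).

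From 3 to 10 days of TAC, 4 histone genes rose and none fell, where 4.42% of all genes rose and 2.18% fell. The share of histone genes was near that of all genes. The 4 were H1f0 (1.23 ± 0.25, adjusted p 0.00641), Hist1h2ao (1.17 ± 0.27, 0.0145), Hist1h2bl (0.97 ± 0.28, 0.0444) and Hist1h1a (0.56 ± 0.16, 0.0478), all adjusted by Benjamini-Hochberg after limma. Hist1h2ao is listed at the same locus as Hist1h2ap, so its single value is uncertain. The summed level of this pair overlapped between the groups. It was 34.9, 24.1 and 38.7 FPKM at 3 days and 38.0, 48.8 and 48.1 FPKM at 10 days. H1f0 went from 4.75, 4.79 and 5.25 FPKM at 3 days to 10.3, 14.97 and 13.8 FPKM at 10 days, with no overlap, and passed whichever single library was left out, while the other 3 did not. The count was 1 without 3 day TAC library 1, and 9, 2 and 2 without 10 day TAC library 1, 2 or 3.

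At 5 days after MI, most of the histone genes called were H2B genes. Of 71 genes, 13 rose and none fell, where 8.93% of all genes rose and 2.34% fell, with medians of 0.48 and 0.10. The 13 were 12 of the 17 H2B genes and H2afx, whose protein marks DNA breaks once phosphorylated. No H2A (median 0.81), H3 (-0.31), H4 (0.49) or linker gene (0.02) passed. The H2A sum was nonetheless at 83.4 and 93.6 FPKM after MI, above the 32.8 to 55.6 FPKM of sedentary libraries. Hist1h2bh was at 2.97, 2.89 and 2.71 FPKM at rest and at 9.88 and 7.52 FPKM after MI (1.32 ± 0.28, adjusted p 0.00450). Hist1h2bk (1.20 ± 0.29), Hist1h2bj (1.19 ± 0.30), Hist1h2bg (1.14 ± 0.26) and Hist1h2bc (1.12 ± 0.29) followed. Hist1h1c stood at 5.11 and 3.11 FPKM, on either side of the 3.41 to 5.03 FPKM of sedentary libraries. In 37 genes both MI libraries were above every sedentary library and in 2 both were below, as in 30.4% and 10.1% of all genes. With 2 MI libraries the calls were fragile: 1 gene passed without MI library 1, 2 without MI library 2, and 8 and 7 without sedentary library 1 or 2.

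**Figure D3:**
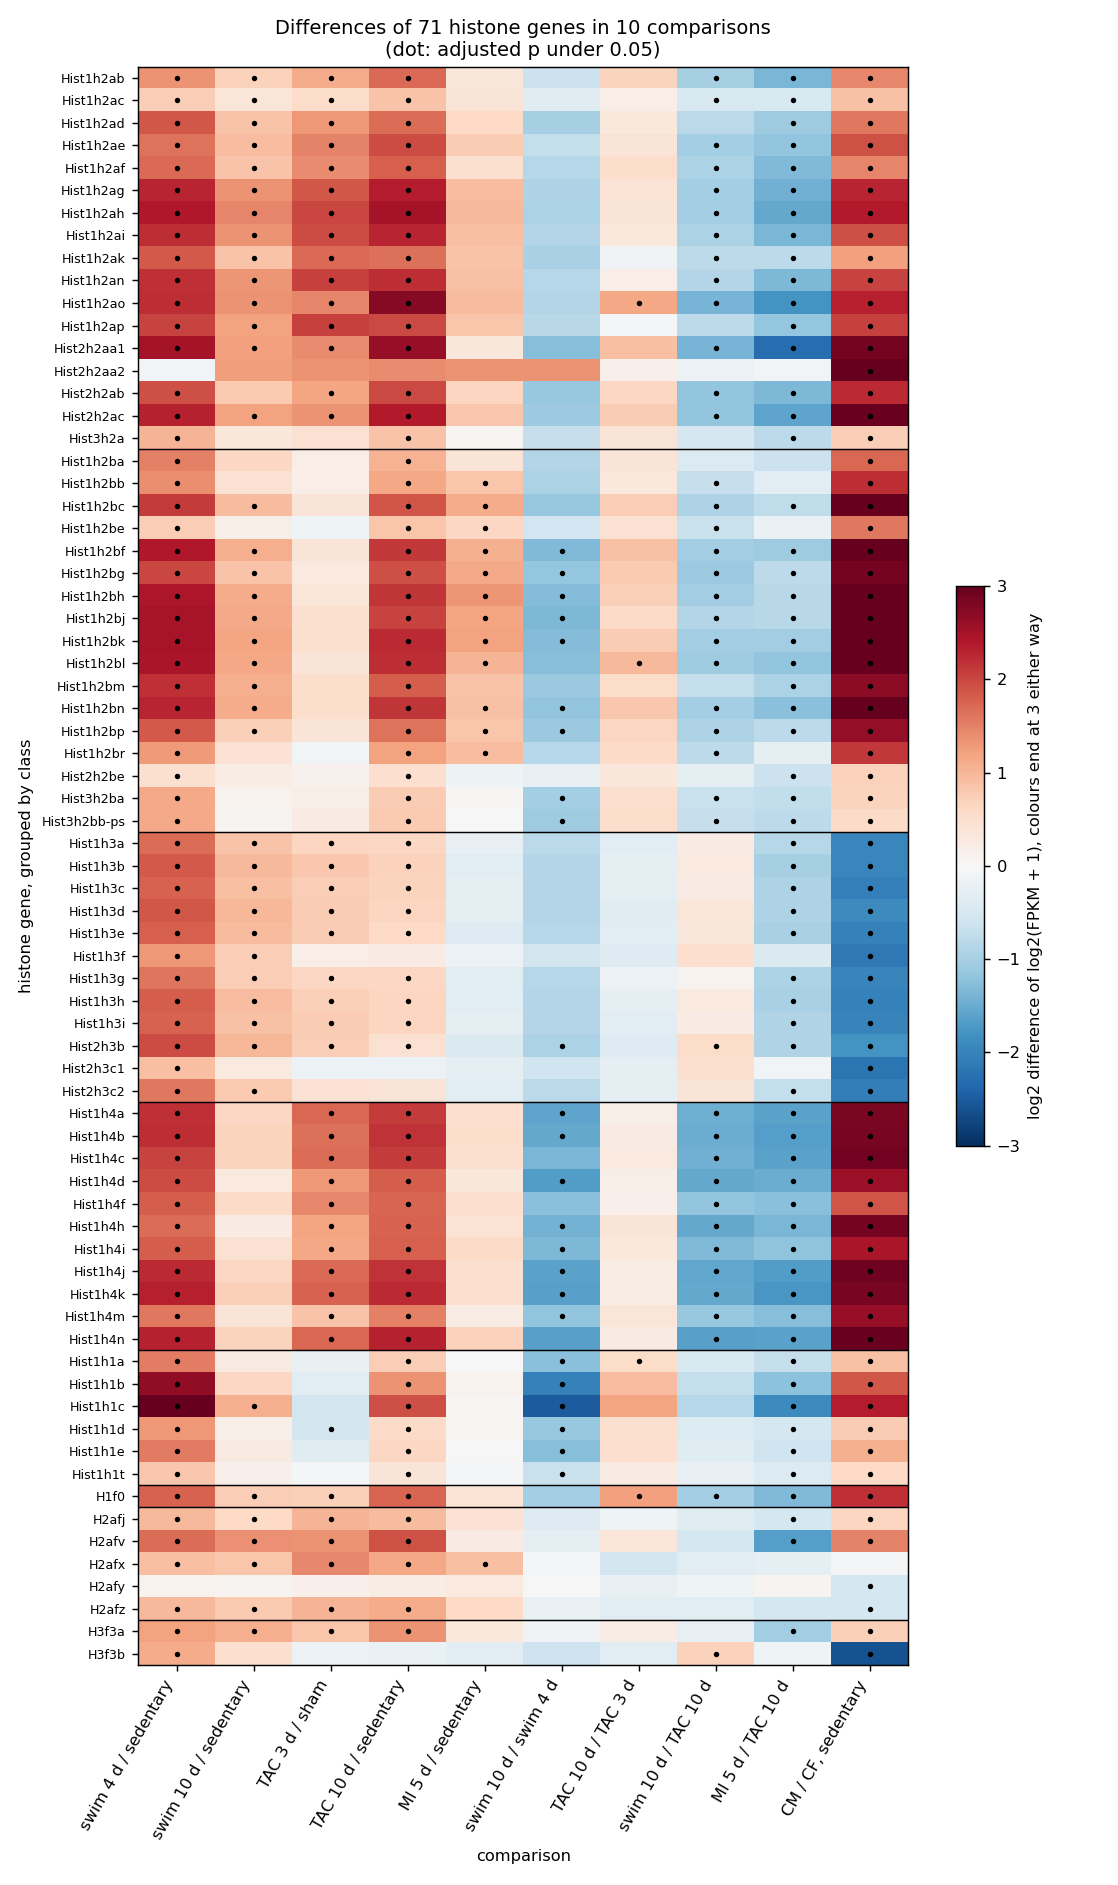
Log2 difference of log2(FPKM + 1) for the 71 tested histone genes (rows, grouped by class) in 10 comparisons (columns), with red for higher and blue for lower in the group named first and a black dot where the adjusted p is under 0.05. H3 genes form a block that is red for 4 day swim and blue for cardiomyocytes, where H2A, H2B, H4 and linker genes are red.

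Comparisons with sedentary mice share the same 3 control libraries, so the conditions were also set against each other directly. After MI, 60 of 71 histone genes were lower than after 10 days of TAC and none was higher, where 30.1% of all genes were lower and 27.1% higher. They included 16 of 17 H2A, 13 of 17 H2B, 10 of 12 H3, all 11 H4 and all 6 linker genes, with H1f0, 2 of 5 variant H2A genes and H3f3a. Hist2h2aa1 (-2.29 ± 0.31, adjusted p 2.27e-05), Hist1h1c (-1.91 ± 0.40), Hist1h2ao (-1.80 ± 0.30), Hist1h4k (-1.74 ± 0.32) and Hist1h4j (-1.68 ± 0.31) had the largest differences. The days after surgery differ between these groups (5 and 10), so model and time cannot be told apart.

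At 10 days, the swim and TAC groups differed by class. In swim fibroblasts 39 histone genes were lower than in TAC fibroblasts and 2 were higher, where 13.2% of all genes were lower and 10.9% higher. All 11 H4 genes (median -1.49), 14 of 17 H2B, 13 of 17 H2A genes and H1f0 were lower. Hist1h4h was at 3.99, 5.42 and 6.47 FPKM after TAC and at 0.80, 1.69 and 1.04 FPKM after swimming (-1.53 ± 0.20, adjusted p 5.62e-05). Hist1h4n (-1.64 ± 0.34), Hist1h4j (-1.55 ± 0.28), Hist1h4d (-1.54 ± 0.29) and Hist1h4k (-1.53 ± 0.29) were alike. None of the 12 H3 genes was lower, and Hist2h3b (0.54 ± 0.19, adjusted p 0.0469) was higher, as was the variant H3f3b (0.69 ± 0.21, adjusted p 0.0269). Both of these lost their call without any of 4 single libraries, among them swim library 1, without which 22 histone genes in all were called.

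Whether the histone genes followed a different course over days of swimming than over days of TAC was tested with an interaction chosen after the data were seen: the change from 4 to 10 days of swimming minus the change from 3 to 10 days of TAC. It was negative and passed for 42 of 71 histone genes and positive for none, where 4.31% of all genes were negative and 1.86% positive. The 42 were all 11 H4 and all 6 linker genes, 16 of 17 H2B and 8 of 17 H2A genes and H1f0, and no H3 gene. Among the linker genes, Hist1h1t passed the filter only through its 4 day swim levels, which enter this difference. Its call here is therefore not separate support. Hist1h1c had the largest value (-3.70 ± 0.50, adjusted p 7.98e-04), followed by Hist1h1b (-2.95 ± 0.40), H1f0 (-2.26 ± 0.35), Hist1h2bl (-2.25 ± 0.39) and Hist1h2bf (-2.20 ± 0.39). Hist1h1c was at 73.9, 70.1 and 38.2 FPKM and then at 7.33, 12.9 and 8.83 FPKM over swimming, and at 6.60, 7.06 and 8.18 FPKM and then at 13.9, 18.97 and 21.4 FPKM over TAC. The first time points differ by a day.

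Sedentary cardiomyocytes, which seldom divide in the adult, had more RNA of most replication-dependent classes than sedentary fibroblasts, but less of H3. Of 71 histone genes, 55 were higher and 15 lower, where 38.7% of all 10371 genes tested over the 22 libraries were higher and 38.6% lower, and none of the 70 overlapped between the groups. Over all genes, 39.1% were wholly higher and 39.3% wholly lower. All 17 H2A (median 2.02), 17 H2B (2.69), 11 H4 (2.86) and 6 linker genes (0.98) were higher, and all 12 H3 genes were lower (median -2.02). The H2B sum was 378, 353 and 336 FPKM in cardiomyocytes against 35.0 to 36.3 FPKM in fibroblasts. Hist1h2bk was at 57.0, 51.9 and 46.3 FPKM (3.20 ± 0.24, adjusted p 3.18e-10), and Hist1h2bh (3.15 ± 0.24), Hist1h2bl (3.13 ± 0.26), Hist1h2bf (3.08 ± 0.26) and Hist2h2aa2 (3.07 ± 0.71) were close to it.

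The H3 genes went the other way with the H3.3 gene H3f3b. Hist1h3d was at 70.3, 48.5 and 39.3 FPKM in cardiomyocytes against 144 to 251 FPKM in fibroblasts (-1.91 ± 0.22, adjusted p 1.53e-07). The largest falls among them were of Hist2h3c1 (-2.20 ± 0.21), Hist1h3f (-2.15 ± 0.22), Hist2h3c2 (-2.07 ± 0.21) and Hist1h3c (-2.06 ± 0.21). H3f3b had the largest difference of the falling genes: 18.5, 17.1 and 16.5 FPKM in cardiomyocytes against 78.9 to 152 FPKM (-2.62 ± 0.20, adjusted p 4.08e-10). H3f3a, which encodes the same protein, was higher in cardiomyocytes (108, 110 and 97.0 FPKM, 0.72 ± 0.20, adjusted p 0.00264). H1f0 was at 17.5, 18.7 and 17.9 FPKM, above each sedentary fibroblast library (2.20 ± 0.24, adjusted p 5.93e-08). Of 5 variant H2A genes, H2afv and H2afj were higher, H2afy and H2afz were lower, and H2afx did not pass (-0.04 ± 0.17, adjusted p 0.826).

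Ratios within a library put these classes side by side without the library's scale. The replication-dependent H3 sum was 10.3 to 25.8 times the level of H3f3b over all 22 libraries, cardiomyocytes included (14.9 to 22.2). The H3 sum was 94.7 to 201 times the H4 sum in sedentary fibroblasts, 48.6 to 64.3 times after 4 days of swimming, 19.6 to 39.5 times after 10 days of TAC, and 1.59 to 3.15 times in cardiomyocytes. H3f3a was at 0.48 to 2.08 times H3f3b in fibroblasts, lowest in a sedentary library and highest in a 10 day TAC library, and at 5.84 to 6.40 times in cardiomyocytes. Hist1h1c was at 0.69 to 1.73 times H1f0 in 17 libraries and higher in 4 day swim (3.70 to 5.20) and sham libraries (3.10 and 5.94).

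**Figure D4:**
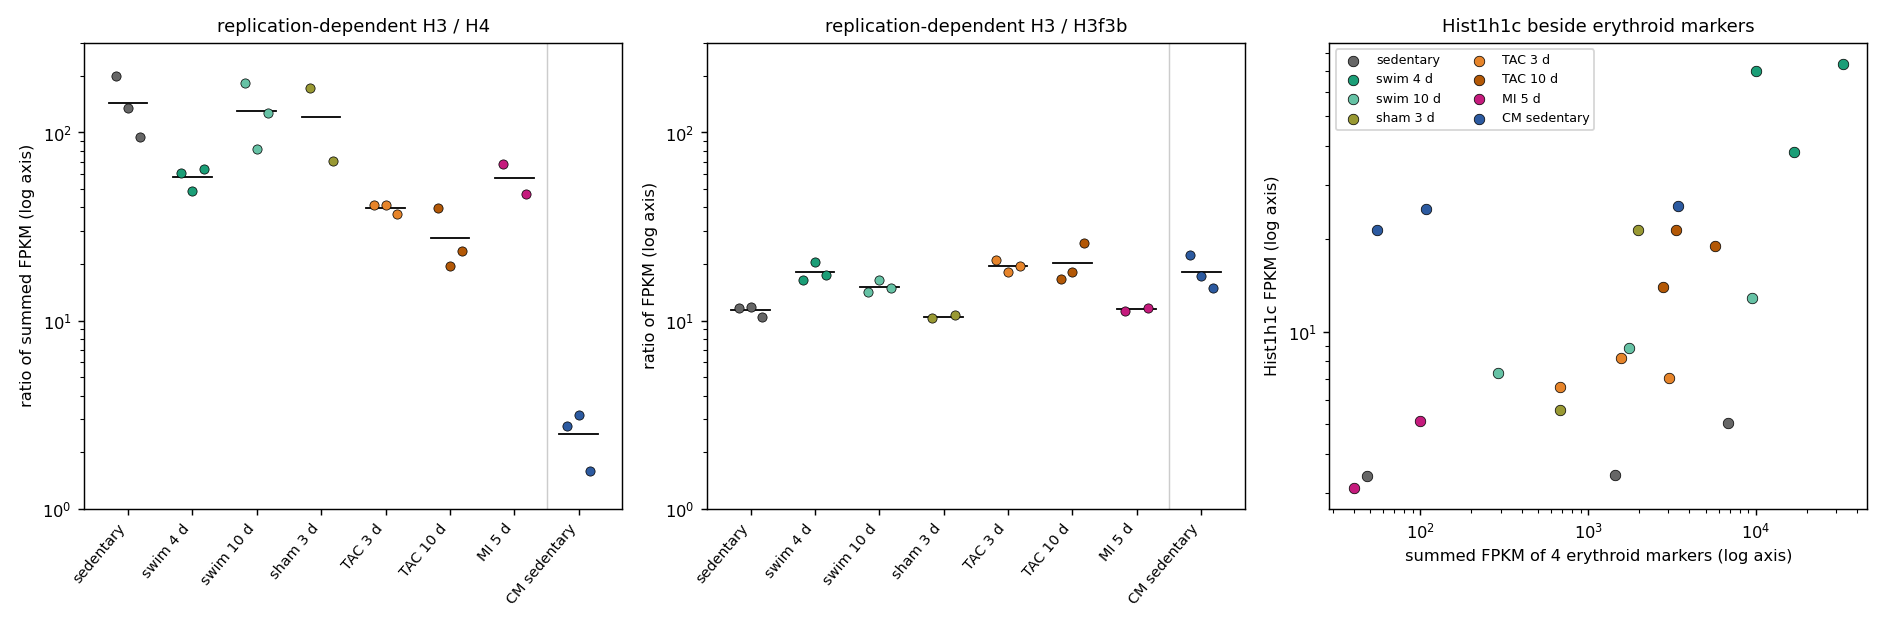
Left and middle: ratio of summed replication-dependent H3 to H4 FPKM and of summed H3 to H3f3b FPKM in each library (log axes, bar: group mean). Right: Hist1h1c FPKM against the summed FPKM of 4 erythroid markers (log axes), where 4 day swim libraries are high in both, cardiomyocyte libraries have 21.4 to 25.5 FPKM of Hist1h1c over erythroid sums of 55.0 to 3427, and sedentary fibroblast libraries have 3.41 to 5.03 over sums of 47.7 to 6800.

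Set side by side, replication-dependent genes and variants (H1f0, 5 variant H2A genes and both H3.3 genes) had the following counts and medians. After 4 days of swimming 62 of 63 replication-dependent genes and 7 of 8 variants rose, with medians of 1.85 and 1.05. After 10 days of TAC it was 59 and 6, with medians of 1.70 and 1.14. After 10 days of swimming it was 36 and 6 (0.80 and 0.76), at 3 days of TAC 35 and 6 (0.73 and 0.92), and after MI 12 and 1 (0.49 and 0.37). Of all genes tested, 38.2% rose after 4 days of swimming, 38.8% after 10 days of TAC and 30% after 10 days of swimming. It was 31.3% at 3 days of TAC and 8.93% after MI. From 4 to 10 days of swimming, where 0.308% of all genes fell, the 24 histone genes that fell were all replication-dependent. The medians were -0.99 and -0.24, and no test set these 2 kinds against each other. H2afz, the main H2A.Z gene, was at 23.7, 23.8 and 34.3 FPKM in sedentary libraries and highest 3 days after TAC (66.9, 73.0 and 87.6 FPKM, against 35.2 and 38.7 after sham operation, log2 difference 1.01 ± 0.22, adjusted p 0.00110). H2afx was also highest 3 days after TAC, at 9.86, 8.25 and 8.53 FPKM against 2.86 and 2.37 after sham operation (1.45 ± 0.21, adjusted p 2.26e-05). It was at 2.12, 1.92 and 2.02 FPKM in sedentary mice and at 3.98 and 5.35 FPKM after MI (0.90 ± 0.21, adjusted p 0.00788). H2afy did not pass in any comparison between fibroblast groups and was at 3.54 to 6.65 FPKM in all 19 fibroblast libraries.

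Short and GC-rich genes stood higher in some groups as a whole, and most histone genes are short, so each comparison was repeated after a smooth trend on transcript length and GC content had been removed from every library. Of 71 histone genes, 65 were then higher and 1 lower (H2afy) after 4 days of swimming (median 1.08, all genes 31.8% higher and 30% lower), with all 12 H3, 11 H4 and 6 linker genes among them. After 10 days of swimming 19 were higher (median 0.37, all genes 20.4% higher and 20.1% lower). After 10 days of TAC 47 were higher and 3 lower (median 0.87, all genes 31.3% and 30.1%). The 3 lower were H3 genes, and a single H3 gene, Hist1h3d, remained higher, where 9 had been called without the correction. The annotated length used for Hist1h3d (1249 bases) was 3.04 times its listed span (411), so its corrected value is uncertain. At 3 days after TAC 22 were higher and 5 lower (median 0.37, all genes 28% and 26.4%). After MI 10 were higher and 1 lower (median 0.29, all genes 6.99% and 4.88%).

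The direct comparisons had fewer calls in most. After MI against 10 days of TAC 27 were lower and 1 higher (all genes 26.4% and 24.5%), and the 27 included 6 of 17 H2A, 4 of 17 H2B, 3 of 12 H3, 8 of 11 H4 and 3 of 6 linker genes. In 10 day swim against 10 day TAC 26 were lower and 8 higher (all genes 12.1% and 10%), with 10 of 11 H4 genes lower and 7 of 12 H3 genes higher. From 4 to 10 days of swimming 11 were lower (6 H4 and 5 linker genes) and none higher (all genes 0.157% and 0%). From 3 to 10 days of TAC 6 were higher and 1, H2afx, lower (all genes 4.63% and 2.87%). The interaction of the swim and TAC courses was negative for 38 and positive for none (all genes 3.38% and 2.91%). In cardiomyocytes 50 were higher and 15 lower (all genes 35.7% and 42.4%), with the 12 H3 genes at a median of -2.55.

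**Figure D5:**
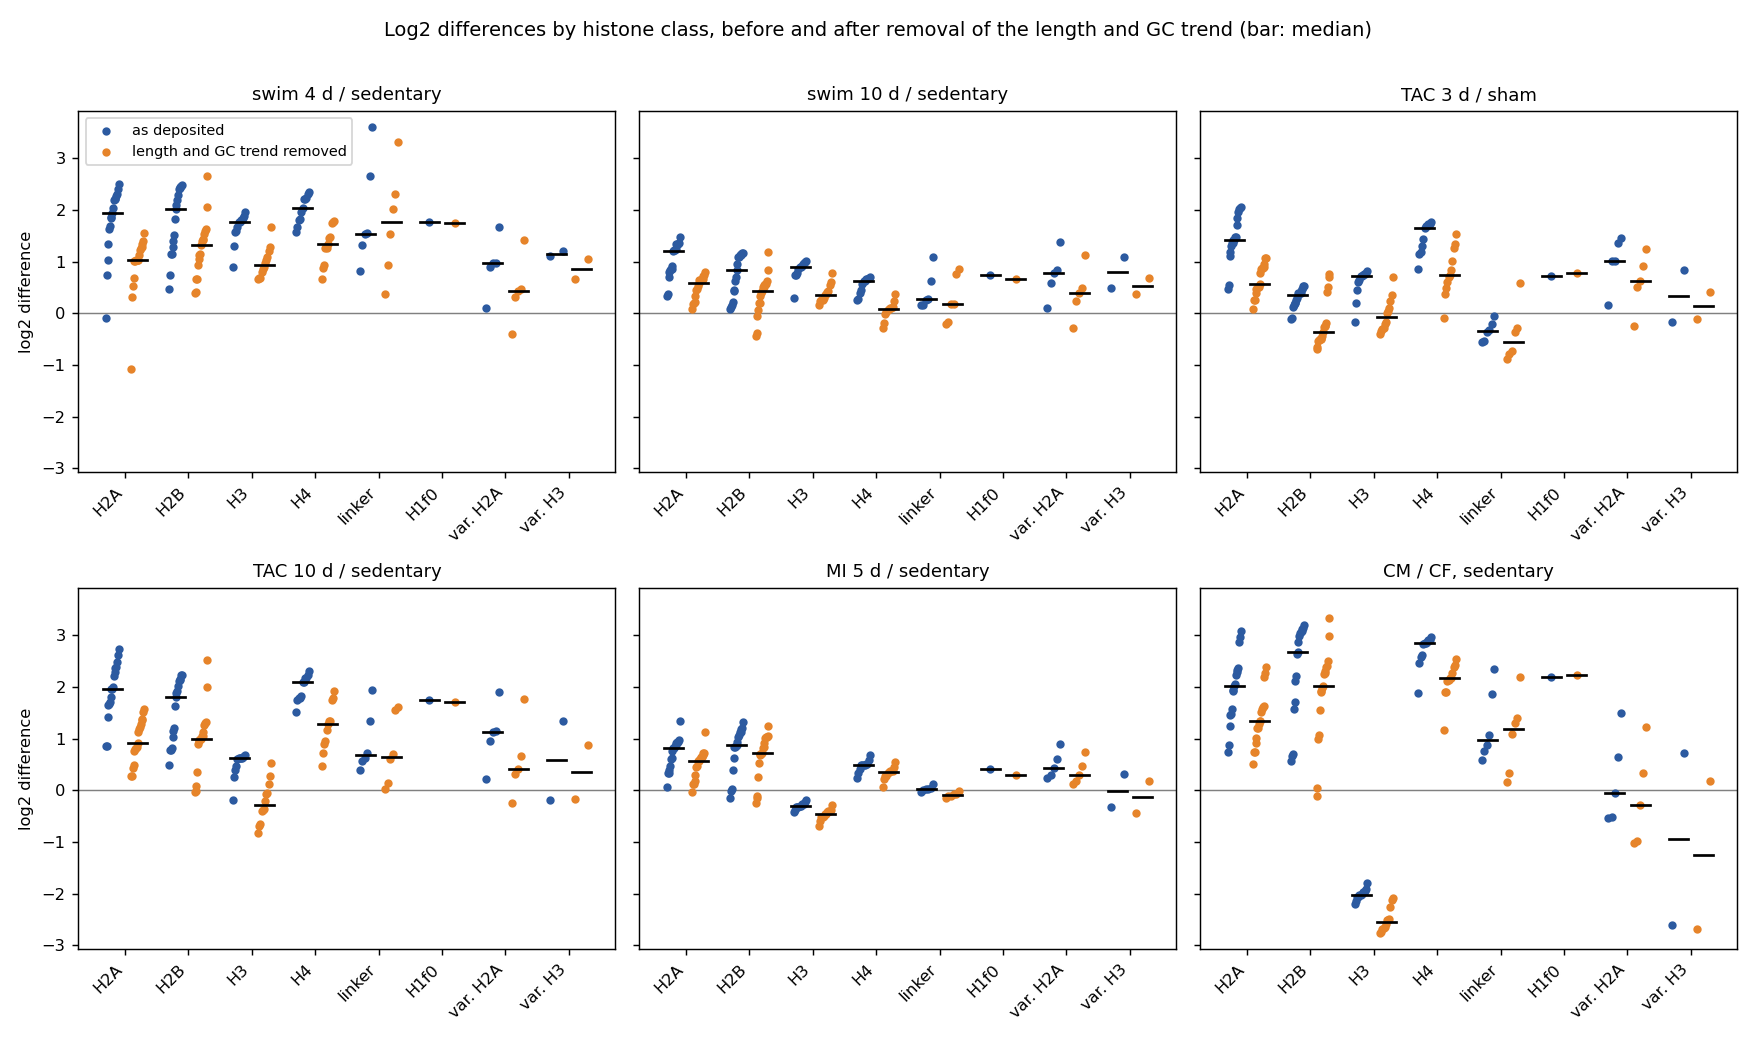
Log2 differences of single histone genes by class in 6 comparisons, as deposited (blue) and with the length and GC trend removed (orange), where a point is a gene and a bar the class median. The medians of H2A, H2B, H3 and H4 moved down in the 5 fibroblast comparisons, H1f0 moved by less than 0.15, and the H3 genes stayed below 0 in cardiomyocytes.

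Genes of S phase and mitosis were set beside the histone genes. Of 28 listed, 19 were tested, and 14 rose after 10 days of TAC (all genes 38.8%), 13 rose and 1 fell at 3 days of TAC (31.3% and 25.8%), 10 rose after MI (8.93%), 5 rose after 4 days (38.2%) and 2 after 10 days of swimming (30%). Of the 19, 8 reached 1 FPKM only in TAC and MI libraries among the fibroblasts (Rrm2, Tyms, Tk1, Ccna2, Ccnb1, Cdk1, Cdc20 and Ube2c). They passed the filter through those groups, so the counts do not rank the conditions. Tk1, the thymidine kinase of S phase, had log2 differences of 1.34 ± 0.18 after 10 days of TAC and 0.28 ± 0.18 after 4 days of swimming. Ccna2 (cyclin A2) was at 1.15 ± 0.20 after MI and 0.01 ± 0.18 after 4 days of swimming. Both are among these 8 genes, so their values do not rank the conditions either. Pcna, the clamp of DNA polymerase, passed in no comparison of fibroblasts with sedentary or sham mice. The proliferation markers Mki67 and Top2a were not tested. Mki67 was at 0.024 to 0.050 FPKM in the 4 day swim libraries, 0.487 and 0.862 FPKM after MI, 0.101 to 0.751 FPKM in sedentary libraries and 1.39 FPKM in sham library 2, the highest of all.

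Genes that make, process and carry histones moved in both directions. Of 29 listed, 17 were tested. After 4 days of swimming 5 rose and 6 fell (all genes 38.2% and 26.3%), after 10 days of TAC 4 rose and 7 fell (38.8% and 27%), and 3 days after TAC 2 rose and 5 fell (31.3% and 25.8%). None passed after MI (8.93% and 2.34%), and 5 rose and 3 fell after 10 days of swimming (30% and 13.6%). Slbp, the stem-loop binding protein, was at 3.98, 4.01 and 4.01 FPKM in sedentary fibroblasts and rose by 0.36 ± 0.15 after 4 days (adjusted p 0.0414) and 0.63 ± 0.15 after 10 days of swimming (adjusted p 0.00296). It was at 4.26, 2.72 and 3.85 FPKM after 10 days of TAC (-0.13 ± 0.15, adjusted p 0.442) and lower in cardiomyocytes, at 1.49, 1.32 and 1.21 FPKM (-1.10 ± 0.14, adjusted p 7.02e-07). Lsm10, a subunit of the U7 particle that cuts histone mRNA after the stem-loop, rose by 1.78 ± 0.25 after 4 days of swimming and 1.74 ± 0.25 after 10 days of TAC. Supt16, a subunit of the histone chaperone FACT, fell by 1.25 ± 0.14 and 1.20 ± 0.14 in the same comparisons. In cardiomyocytes 4 were higher and 9 lower, among them the chaperones Nap1l4 (1.66 ± 0.14) and Nasp (-1.03 ± 0.12). Of histone genes outside the symbol rule, the centromeric H3 gene Cenpa rose by 1.68 ± 0.23 after 10 days of TAC and 0.78 ± 0.23 after 4 days of swimming, and the linker gene H1fx by 1.43 ± 0.21 and 1.52 ± 0.21. With the length and GC trend removed, Slbp (0.18 ± 0.15, adjusted p 0.310) and Cenpa (0.35 ± 0.23, 0.192) after 4 days of swimming and H1fx after 10 days of TAC (0.27 ± 0.15, 0.137) did not pass.

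Red cell markers and ribosomal precursor RNA moved with some of the groups. The sum of 4 erythroid markers was 32954, 10021 and 16905 FPKM in the 4 day swim libraries, 291, 9514 and 1737 after 10 days of swimming, 2770, 5678 and 3316 after 10 days of TAC, 678, 3017 and 1564 at 3 days after TAC, 679 and 1991 after sham operation, 99.0 and 40.0 after MI, and 47.7, 6800 and 1443 in sedentary fibroblasts. The 3 of these genes that were tested all rose in 4 day swim libraries. Sedentary library 2, at 6800 FPKM, had the highest Hist1h1c level of its group (5.03 FPKM, against 3.41 and 3.43) and an H2B sum of 35.8, beside 35.0 and 36.3 in the other 2. In 6 of the 8 groups the library with the highest erythroid sum also had the highest Hist1h1c level. Beside the sedentary group, these levels were 73.9 against 70.1 and 38.2 FPKM after 4 days of swimming, 12.9 against 7.33 and 8.83 after 10 days, 21.3 against 5.58 after sham operation, 5.11 against 3.11 after MI and 25.5 against 21.4 and 25.0 in cardiomyocytes, with the library highest in erythroid markers first. The 2 TAC groups differed from this: Hist1h1c was at 18.97 FPKM in the 10 day library with the highest erythroid sum and at 21.4 in another, and at 7.06 and 8.18 FPKM likewise at 3 days. Cardiomyocyte libraries at 55.0, 3427 and 107 FPKM of these markers had H2B sums of 378, 353 and 336 FPKM. The part of red cell RNA in the swim result was not tested beyond these values. Rn45s, the ribosomal precursor, which has no poly-A tail, was at 171 to 273 FPKM in sedentary and 146 and 183 FPKM in sham fibroblasts, 1588 to 3041 at 3 days and 911 to 6988 at 10 days after TAC, 361 to 1435 and 801 to 1814 after 4 and 10 days of swimming, 1289 and 120 after MI, and 756 to 2971 in cardiomyocytes. It was thus higher in every library of the groups with most histone calls than in any sedentary fibroblast library, and its part in those results was not tested. The 2 MI libraries, which differ in Rn45s, had H2A sums of 83.4 and 93.6 FPKM and H2B sums of 99.2 and 76.5 FPKM.

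The authors' deposited table of fold changes and q-values holds 75 of the 78 genes. After 4 days of swimming, 65 of the 69 histone genes that the authors' deposited table tested were higher at a q-value under 0.05 and none lower, where it called 21.1% of all tested genes higher and 16.4% lower. At 10 days of swimming the authors' deposited table had 25 of 70 higher and none lower (all genes 16.6% and 11.6%). For TAC, the authors' deposited table had 52 of 71 higher and none lower at 10 days (25.6% and 15.8%), and 25 higher and 1 lower of 71 at 3 days (17.3% and 18.3%). After MI, 19 of 68 were higher and none lower by the authors' deposited table (9.7% and 3.26%). From 4 to 10 days of swimming the authors' deposited table had 35 of 71 lower and none higher (1.75% and 4.01%). In cardiomyocytes 48 of 69 were higher and 13 lower by the authors' deposited table (30.3% and 27.9%).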

How the data were processed

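Poly-A RNA was made into stranded libraries, per the labels' protocols. The FPKM values were computed by the authors with Cufflinks 2.0.2 on mm10, per the submitters' processing notes, while no aligner or gene model set is named there: not given in the sources used here. Their comparison table, deposited by the authors, holds log2 fold changes, p-values and q-values, and its group names were matched to the labels by wording. The control it names for swimming was read as the sedentary group, the only unoperated fibroblast control in the labels. The 44 columns of confidence bounds were not used, nor was a deposited table in which controls were pooled. No counts were given, so depth is unknown and no interval from counting could be made.

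Differences of log2(FPKM + 1) were fitted with limma 3.58.1 (trend and robust) in R 4.3.3, which was tested on simulated data. The fit took genes that reached an FPKM of 1 in 2 or more libraries: 9425 in the 19 fibroblast libraries, and 10371 in all 22 for cardiomyocytes. A gene was called where its p, adjusted by Benjamini-Hochberg over all genes fitted, was below 0.05. The added 1 pulls differences of low genes toward 0. The trend on length and GC used splines with 4 degrees of freedom and GENCODE M21 lengths (8897 and 9780 genes). These lengths exceeded the listed span by over 1.5 times for 10 of 67 replication-dependent genes, among them Hist1h2bh, Hist1h3d, Hist1h4d, Hist1h4j and Hist1h1d.

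Named were all called histone genes of a comparison where there were 10 or fewer, otherwise the 5 largest rises and 5 largest falls, with Slbp, Mki67, Top2a, Pcna and called genes of the listed groups. Genes named beside these to show a class were chosen after their values were seen. The histone genes, lists and comparisons were chosen with earlier results of these data known. Alternatives were another pseudocount, other filters, median scaling, the trend removal, fits of 2 groups, a replicate block, single libraries left out and the authors' table.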

Additional observations from a re-analysis of the deposited data

Results flagged for a closer look

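Differences between conditions, each tested by its own contrast, stood out in 3 comparisons. After MI, compared with 10 days of TAC (30.1% of all genes lower), 16 of 17 replication-dependent H2A genes, 13 of 17 H2B, 10 of 12 H3, 11 of 11 H4 and 6 of 6 linker genes were called lower. With the length and GC trend removed it was 6 H2A, 4 H2B, 3 H3, 8 H4 and 3 linker genes, where 26.4% of all genes were lower. The shares of H2B and H3 genes were then near that of all genes. After 10 days of swimming, compared with 10 days of TAC (13.2% of all genes lower), 13 of 17 H2A, 14 of 17 H2B and 11 of 11 H4 genes were called lower. With the trend removed it was 7 H2A, 7 H2B and 10 H4 genes (12.1% of all genes). In the interaction of the swim and TAC courses, which was added after the data were seen (4.31% of all genes negative), 16 of 17 H2B, 11 of 11 H4 and 6 of 6 linker genes were called negative. With the trend removed it was 15 H2B, 10 H4 and 6 linker genes (3.38% of all genes). The linker gene Hist1h1t was tested only through its 4 day swim levels, which enter this interaction. Genes of a class share sequence, so these counts are not independent measurements.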

How the results depend on the processing

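The counts of called histone genes after 4 days of swimming (69), 10 days of TAC (65) and in cardiomyocytes (70) stayed within 1.5 times under every alternative run. So did the interaction (42), but for it only the trend removal and single libraries left out were run. Other pseudocounts, filters and scalings were not tried on the interaction. Leaving out 1 library at a time gave 67 to 69, 59 to 67, 68 to 70 and 28 to 47 genes. It gave 1 to 15 genes for MI against sedentary (13 as reported), 37 to 47 for 3 days of TAC against sham (42), 34 to 47 after 10 days of swimming (42), 41 to 58 for MI against TAC (60), 22 to 44 for 10 day swim against TAC (41), 1 to 9 over the TAC course (4) and 5 to 41 over the swim course (24). Where this left a group with 1 library, that library was assumed to vary like the other groups.

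With the length and GC trend removed the counts were 27 for 3 days of TAC, 19 after 10 days of swimming, 28 for MI against TAC, 7 over the TAC course and 11 over the swim course. Hist1h1d at 3 days of TAC then changed sign (0.59 against -0.55). Its annotated length (7425 bases) was 2.49 times its listed span (2977), so this corrected value is uncertain. The authors' table gave 26, 25, 35 and, over the TAC course, 10. Median scaling gave 6 for MI and 2 over the TAC course, and it moved the median of all genes from 0.10 to -0.03 for MI and from 0.14 to 0.03 after 10 days of swimming. The pseudocount of 0.1 gave 2 over the TAC course and 6 over the swim course, the filter at FPKM of at least 5 gave 2 over the TAC course, no filter gave 10 over the swim course, and fits of 2 groups gave 9 and 0 in that order, with fewer degrees of freedom. The cause of the other shifts was not tested.

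Labels give cardiomyocyte and fibroblast sedentary libraries matching names, and a matching date for replicate 3, but name no shared animal, so no pairing was assumed. Deviations of same-numbered libraries correlated at 0.23, 0.31 and 0.07 (cardiomyocytes and fibroblasts) and at -0.17 and -0.36 (MI and sedentary). With a replicate block, 10 genes were called for MI and 70 for cardiomyocytes.

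The files give no counts, so no depth limit was set. Calls of MI against sedentary rested on single libraries, with the range of 1 to 15 given above.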
